A study of Mus musculus with 114 samples.

Results

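The progression of diet-induced obesity between 8 and 20 weeks of high fat diet (HFD) was examined in adipocytes of male C57BL/6J mice, isolated from perigonadal fat. The comparison set the 6 HFD mice of 20 weeks against the 6 HFD mice of 8 weeks, which are 12 of the 38 mice with a column in the deposited table. It covered 10477 of the 29132 genes in that table, those with a mean log2(CPM + 1) above 2 over the 12 mice, where CPM stands for counts per 1000000 reads, a gene's share of the counted reads of a library. All of these mice carried no engineered allele according to the labels, were 6 weeks old when the diet began and were fasted for some hours before tissue collection. Chow diet (CD) mice of the same 2 ages, 6 at each, served as the controls without HFD, and the 6 HFD mice of 34 weeks gave a later time. Different mice were taken at each time, on the final day of that time point. Age, time on diet and day of collection thus cannot be told apart within the HFD mice. The adipocytes are the fraction that floats after collagenase digestion of the fat pad, with no sort or gate for cell type, and 3 technical replicates of each mouse had been merged into 1 column.

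Visceral adipocytes store triglyceride, release it as fatty acids by lipolysis and secrete hormones such as adiponectin, leptin and resistin. As the fat pad expands in obesity, extracellular matrix is remodelled around the adipocytes, and macrophages that digest the lipid of dying cells gather in rings called crown-like structures. Such macrophages can take up enough lipid to float with the adipocytes, and their lysosomes, in which cathepsins and acid lipases work at a pH kept low by the vacuolar proton pump, are a known feature of them.

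The libraries of the 12 HFD mice held 13201234 to 15480388 counted reads at 8 weeks and 13159018 to 14961360 at 20 weeks. The first principal component of the 10477 genes carried 68.7% of the variance and separated the ages, with scores of -55.1 to -8.78 at 8 weeks and 14.2 to 44.5 at 20 weeks. HFD 20 week mouse 4 stood apart from the other 20 week mice at 14.2. In mean log2(CPM + 1) it was the lowest of its group for the lists of progenitor and fibroblast, matrix and integrin genes. It was also the lowest for core macrophage (7.62 against 7.86 to 8.52 in the others) and lipid-associated macrophage markers (7.31 against 8 to 8.51). For adipocyte markers it was the highest (10.2 against 9.74 to 9.97). No 2 libraries of a group agreed within sampling noise. Where nothing else is said, a gene is called when its adjusted p from the limma test (two-sided, Benjamini-Hochberg over the 10477 genes) was under 0.05, and the p-values measure the spread between mice.

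The defining adipocyte markers were high in all 12 libraries, with a summed level of 38190 to 49860 CPM over the 14 adipocyte markers at 8 weeks and 26980 to 37530 CPM at 20 weeks. Macrophage markers were also present in every library. The summed level of the 17 core macrophage markers was 1268 to 4446 CPM at 8 weeks and 6060 to 12220 CPM at 20 weeks, without overlap. In the CD mice the same sum was 323 to 1741 CPM at 8 weeks and 475 to 3862 CPM at 20 weeks. T and NK cell markers stayed near 0, and 0 of the 15 passed the expression limit. Their sum was 2.87 to 5.83 CPM at 8 weeks and 3.76 to 7.02 CPM at 20 weeks, and Cd3e did not exceed 0.142 CPM in any of the 12 mice. None of the 7 B cell markers passed either, with a sum of at most 1.74 CPM at 8 weeks and 1.63 CPM at 20 weeks. The 12 testis and epididymis markers, which would show tissue next to the fat pad, summed to at most 5.21 CPM at 8 weeks and 20.5 CPM at 20 weeks, and Ros1 had no read. In such bulk libraries fewer cells of a type and less RNA per cell cannot be told apart, and the part that the macrophage markers have in the results on other genes was not tested.

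Between 8 and 20 weeks of HFD 5166 genes were called, which is 49.3% of those tested. Of these, 2919 (27.9% of the genes tested) were higher at 20 weeks and 2247 (21.4%) were lower. The rises were larger than the falls: 971 of the higher genes and 80 of the lower genes had changed at least 2-fold, and 243 and 3 at least 4-fold. In 1610 genes (15.4%) every 20 week mouse lay above every 8 week mouse, and in 999 genes (9.54%) every 20 week mouse lay below. The median log2 difference over all tested genes was 0.02. The shares of 27.9% higher and 21.4% lower are the background for the counts of the lists below. The balance of small changes depended on the scaling, since higher genes made up 56.5% of the called genes with CPM as deposited and 44.2% with TMM factors, which shifted the median of all genes to -0.06. Without mouse 4 of the 20 week group a count moved by 3 or more genes, or by over 1.5 times, in 12 of the 45 lists, and these second counts are given with each list. In the other lists the counts moved by at most 2 genes.

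**Figure D1:**
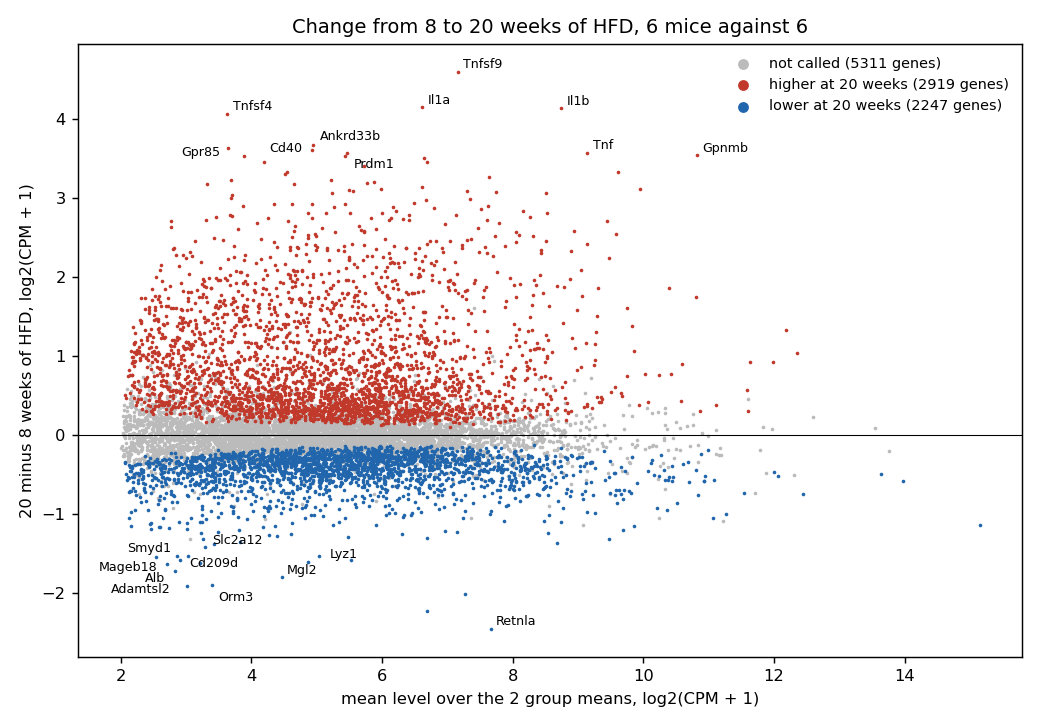
Log2 difference between 20 and 8 weeks of HFD (vertical axis, log2(CPM + 1)) against the log2 of the mean CPM of both groups plus 1 (horizontal axis) for the 10477 genes tested, with called genes in red (higher) and blue (lower), other genes in grey, and the 10 largest rises and falls without overlap labelled. Called genes reach 4.60 above 0 but only 2.45 below it, and 971 genes rose and 80 fell at least 2-fold.

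The 10 largest rises without overlap included ligands and receptors of immune signalling. Tnfsf9, a TNF superfamily ligand that costimulates T cells (chromosome 17, 57105287 to 57107758, mm10), ranged from 2.65 to 29.2 CPM (median 9.26) at 8 weeks and from 144 to 459 CPM (median 258) at 20 weeks, a log2 difference of 4.60 ± 0.50 (SE, n = 6 and 6, adjusted p = 2.3e-05). Tnfsf4, which encodes the costimulatory OX40 ligand, went from 0.0668 to 0.452 CPM to 7.83 to 37.6 CPM (log2 difference 4.07 ± 0.34, adjusted p = 6.5e-06). Cd40, a receptor of antigen-presenting cells, ranged from 1.21 to 6.33 CPM (median 3.6) and then from 33.4 to 77.9 CPM (median 54.8), a log2 difference of 3.61 ± 0.34. In all 3 genes every 20 week mouse lay above every 8 week mouse. Ankrd33b, an ankyrin repeat gene, went from a median of 2.78 CPM to 55.8 CPM (log2 difference 3.67 ± 0.26), and the orphan receptor Gpr85 from 0.889 to 21.9 CPM (3.63 ± 0.29). Prdm1, a transcriptional repressor of lymphoid and myeloid cells, went from a median of 5.47 CPM to 75.7 CPM (3.57 ± 0.35). These genes, too, were without overlap between the groups.

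**Figure D2:**
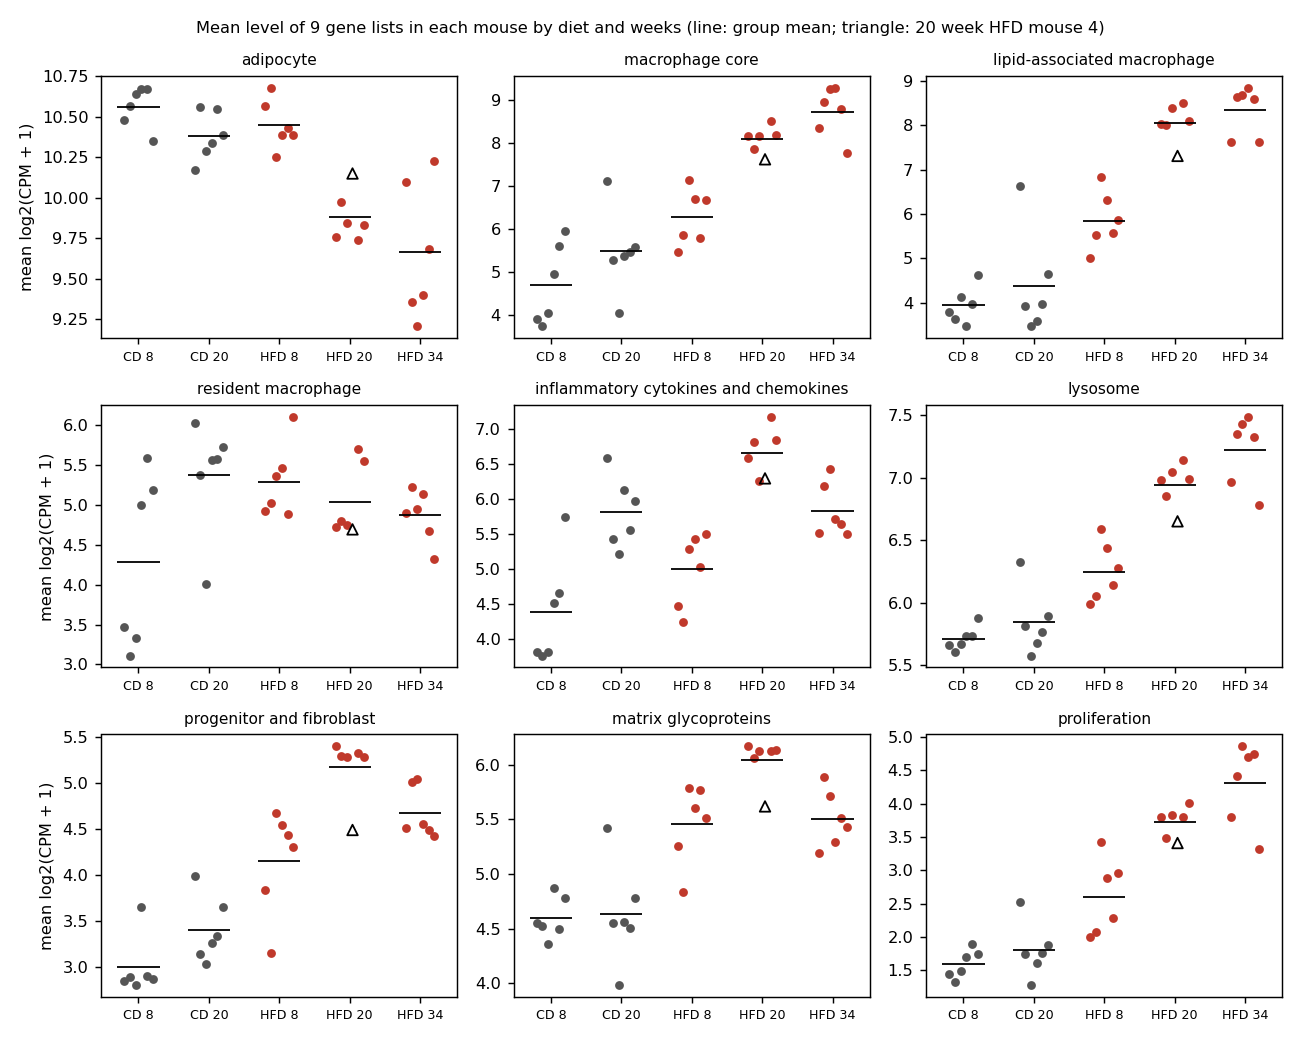
Mean log2(CPM + 1) over the members of selected gene lists (panels) for each mouse, in columns for CD at 8 and 20 weeks (grey) and HFD at 8, 20 and 34 weeks (red), with the triangle for 20 week HFD mouse 4 and lines for the group means. In HFD the core macrophage list has means of 6.27 at 8 weeks and 8.08 at 20 weeks without overlap, and mouse 4 is the lowest 20 week mouse for progenitor and fibroblast genes at 4.49.

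Adipocyte identity genes were lower at 20 weeks. Of the 14 adipocyte markers tested, 8 were called lower and none higher, with a median log2 difference of -0.49 against 0.02 for all genes. Adipoq, the gene of adiponectin, ranged from 3960 to 6148 CPM (median 4905) at 8 weeks and from 3163 to 4409 CPM (median 3289) at 20 weeks, a log2 difference of -0.51 ± 0.15 (adjusted p = 0.011, and 0.109 with no expression limit). Pparg, the master regulator of adipocyte differentiation, ranged from 204 to 249 CPM and then from 149 to 187 CPM (-0.45 ± 0.07, adjusted p = 0.00028). Plin1, which coats the lipid droplet, had medians of 1471 and 1003 CPM (-0.53 ± 0.12, adjusted p = 0.0034). Pparg and Plin1 did not overlap between the groups, whereas the Adipoq ranges did. Adrb3, the adrenergic receptor that starts lipolysis, ranged from 267 to 853 CPM (median 416) and then from 139 to 357 CPM (median 205), a log2 difference of -1.08 ± 0.28 (adjusted p = 0.0068). These falls stand beside the higher macrophage sums given above.

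Among the 20 listed adipokines and secreted factors, 3 did not pass the limit, 8 were called lower and 2 higher (median log2 difference -0.73). Retn, the gene of resistin, ranged from 601 to 1613 CPM (median 1206) at 8 weeks and from 341 to 622 CPM (median 495) at 20 weeks (-1.20 ± 0.23, adjusted p = 0.0011). Agt, which encodes angiotensinogen, the precursor of the vasoactive angiotensins, fell from a median of 242 CPM to 55.4 CPM (-2.01 ± 0.40, adjusted p = 0.0012). The acute phase gene Saa3 was spread widely at 8 weeks, from 20.2 to 406 CPM, and narrowly at 20 weeks, from 16.9 to 29.8 CPM (-2.22 ± 0.61, adjusted p = 0.0092). For Saa3 5 of the 6 mice of 8 weeks lay above every 20 week mouse. Orm3, another acute phase gene, ranged from 8.33 to 23.3 CPM and then from 2.54 to 4.97 CPM (-1.89 ± 0.22, adjusted p = 3.9e-05). Alb, the gene of albumin, ranged from 5.17 to 16.5 CPM and then from 1.21 to 3.34 CPM (-1.72 ± 0.26, adjusted p = 0.00019). Orm3 and Saa3 belong to families of related genes, and whether the counting split reads among their members was not checked. Lep, the gene of the satiety hormone leptin, was not called. It ranged from 1472 to 7450 CPM (median 3799) at 8 weeks and from 1008 to 3911 CPM (median 2443) at 20 weeks (-0.73 ± 0.42, adjusted p = 0.17). Its adjusted p was 0.0494 without 8 week mouse 2 and 0.0385 with array weights. Cfd, the gene of adipsin, was not called either (-1.08 ± 0.54, adjusted p = 0.12), but the other tools called it lower (adjusted p = 0.00928 by DESeq2 and 0.0362 by edgeR), as did limma without 8 week mouse 3 (adjusted p = 0.0345) or with the CD mice in the fit (0.0375).

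**Figure D3:**
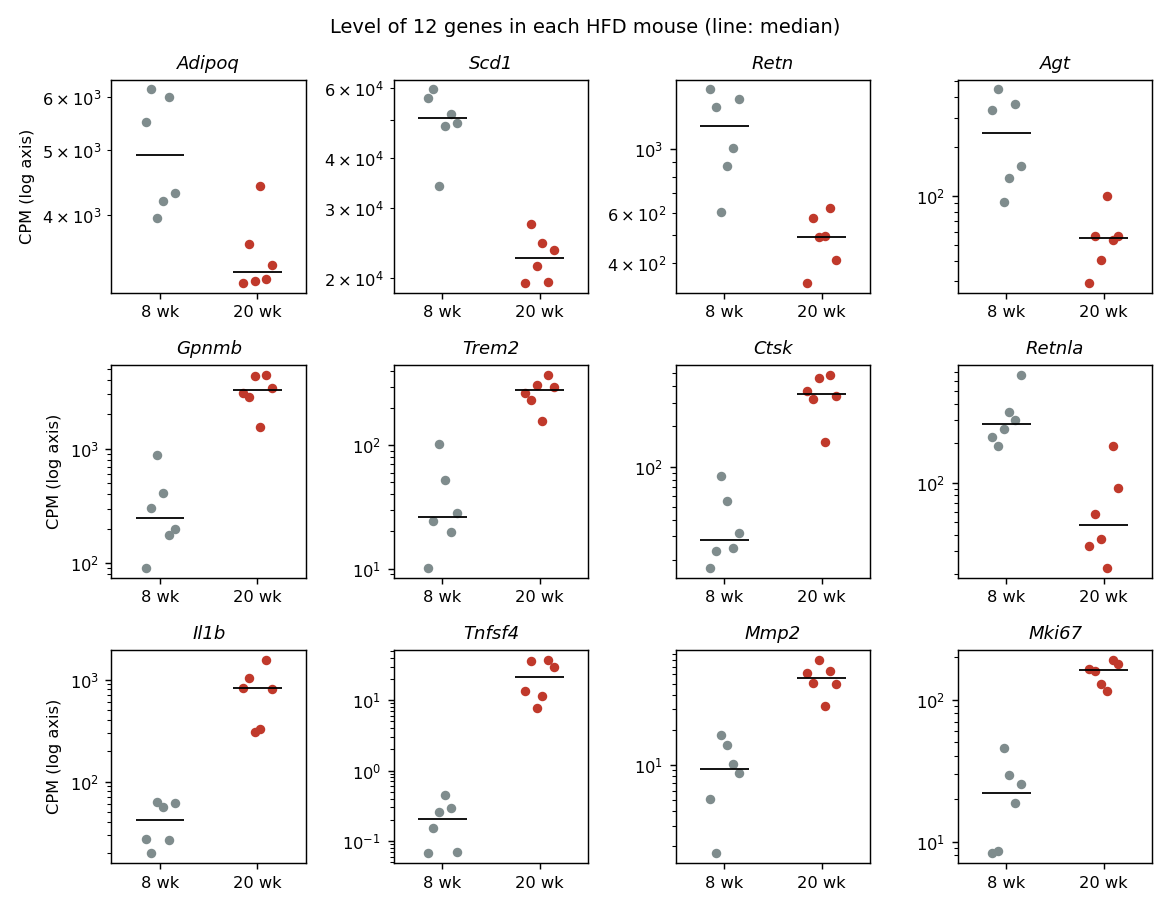
CPM on a log axis for selected genes (panels) in each of the 12 HFD mice, with the 8 week (grey) and 20 week (red) mice as separate columns of points and lines at the medians. Points of the groups do not overlap for Gpnmb, with 90.5 to 882 CPM at 8 weeks and 1550 to 4466 CPM at 20 weeks, nor for Retnla, with 193 to 673 CPM and 22.2 to 189 CPM.

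All 17 core macrophage markers tested were called higher at 20 weeks, 13 of them without overlap, with a median log2 difference of 1.89. Cd68, a lysosomal membrane protein of macrophages, ranged from 49.4 to 222 CPM (median 102) at 8 weeks and from 385 to 809 CPM (median 609) at 20 weeks (2.46 ± 0.31, adjusted p = 5.4e-05). Csf1r, the receptor for the growth factor on which macrophages depend, ranged from 117 to 303 CPM and then from 402 to 724 CPM (1.63 ± 0.22, adjusted p = 9.5e-05). Of the 13 markers of lipid-associated macrophages tested, 11 were called higher, each without overlap, with a median log2 difference of 2.90. Gpnmb, a membrane glycoprotein induced in lipid-laden macrophages (chromosome 6, 49036518 to 49058182), ranged from 90.5 to 882 CPM (median 251) and then from 1550 to 4466 CPM (median 3247), a log2 difference of 3.54 ± 0.46 (adjusted p = 6.7e-05). Spp1, the gene of osteopontin, rose from a median of 17.7 CPM to 155 CPM (3.51 ± 0.38), and Trem2, a lipid-sensing receptor, from 26.3 to 283 CPM (3.08 ± 0.43). The macrophage elastase Mmp12 rose from a median of 198 CPM to 1626 CPM (3.12 ± 0.43) and Itgax, the integrin chain CD11c, from 42.9 to 360 CPM (3.08 ± 0.38). None of these 5 genes overlapped between the ages.

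Markers of resident macrophages moved in both directions: of 11 tested, 4 were higher and 4 lower, with a median log2 difference of -0.48. Retnla, a secreted product of alternatively activated macrophages (chromosome 16, 48842609 to 48844461), had the largest fall among the called genes without overlap, from 193 to 673 CPM (median 280) at 8 weeks to 22.2 to 189 CPM (median 47) at 20 weeks (-2.45 ± 0.46, adjusted p = 0.00088). Mgl2, a lectin receptor of the same activation state, ranged from 17.6 to 60.3 CPM and then from 5.48 to 15.2 CPM (-1.80 ± 0.32, adjusted p = 0.00054). Lyve1, a hyaluronan receptor of perivascular macrophages and lymphatic vessels, ranged from 24.6 to 48.8 CPM and then from 9.76 to 24.5 CPM (-1.11 ± 0.25, adjusted p = 0.0027). Cd209d, a lectin receptor of a family with near-identical members, went from a median of 8.38 CPM to 2.19 CPM (-1.58 ± 0.31). Cd209f, of the same family, went from a median of 19.7 CPM to 8.31 CPM (-1.27 ± 0.38). Folr2, Pf4 and Mrc1, which mark resident macrophages as well, rose by 1.46 ± 0.24, 1.22 ± 0.26 and 1.11 ± 0.19 on the log2 scale, so the members of the list diverged while the core macrophage genes rose together. The lectin receptor Clec10a was the remaining member called higher, so the lectin receptors diverged too. Mgl2 and Cd209d are not members of the list. Lyz1, a lysozyme gene that shares reads with the macrophage gene Lyz2, was lower (-1.52 ± 0.32, adjusted p = 0.0018), whereas Lyz2 was among the core markers called higher.

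Inflammatory cytokine and chemokine genes rose in HFD. Of 32 listed, 28 were tested and 23 were called higher, 18 of them without overlap, with a median log2 difference of 1.81. Il1b, a pyrogenic cytokine of the inflammasome (chromosome 2, 129364569 to 129371164), ranged from 19.8 to 62.7 CPM (median 41.7) at 8 weeks and from 306 to 1564 CPM (median 819) at 20 weeks (4.14 ± 0.43, adjusted p = 1.8e-05). Il1a rose from a median of 9.22 CPM to 190 CPM (4.15 ± 0.44). Tnf, the cytokine that impairs insulin action in adipocytes, rose from a median of 92.2 CPM to 934 CPM (3.58 ± 0.50, adjusted p = 0.00012). Il6 ranged from 7.5 to 22.8 CPM and then from 58.9 to 185 CPM (2.89 ± 0.32). Ccl4, a chemokine for monocytes, ranged from 3.94 to 43.3 CPM and then from 38.5 to 330 CPM, with overlap (3.14 ± 0.59). Ccr2, the receptor that draws monocytes into tissue, was the member called lower (-0.90 ± 0.32, adjusted p = 0.032). This call was lost without 20 week mouse 1, 2 or 4 or 8 week mouse 3, 4 or 6 (adjusted p from 0.0626 to 0.068). Without 20 week mouse 4 the list had 24 higher and 0 lower.

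The same cytokine list rose in the chow mice. Its median log2 difference between 20 and 8 weeks of CD was 1.78, and 14 of the 28 genes were called higher there, in a comparison in which 5.13% of all genes were called. Il6 rose by 3.68 ± 0.43 in CD (adjusted p = 0.00047), Ccl4 by 4.17 ± 0.48 and Tnf by 2.61 ± 0.50 on the log2 scale. The test of the difference between the diets, an interaction term over the 24 mice of both diets, called 1 member higher and 1 lower in HFD than in CD. Il6 had an interaction of -0.79 ± 0.57 (adjusted p = 0.31) and Tnf one of 0.97 ± 0.75 (adjusted p = 0.34), so neither was shown to differ. Interferon-stimulated genes were similar: 8 of 19 were higher and 2 lower in HFD (median 0.47; 1 lower without mouse 4), and 7 were higher in CD (median 0.84). Oasl1, an antiviral effector, rose by 3.53 ± 0.51 in HFD and 4.08 ± 0.37 in CD, and Isg15 by 1.71 ± 0.47 and 1.73 ± 0.33. Of 7 MHC class II presentation genes 6 were higher in HFD (median 1.07, 5 without mouse 4), for example H2-Aa with 176 to 575 CPM and then 514 to 1227 CPM (1.16 ± 0.31), against a median of 1.02 in CD, where limma called 0 (5 at an unadjusted p under 0.05). By the same test 9 of the 13 markers of lipid-associated macrophages were called with a larger log2 difference in HFD than in CD. Of the 17 core macrophage markers limma called 0 (4 at an unadjusted p under 0.05). The term was nonetheless above 0 for all 17, with list medians of 1.89 in HFD and 0.77 in CD. With all 6 groups of the series in 1 fit 3 of the 13 stayed called, among them Ctsk (adjusted p = 0.0452), whereas Gpnmb (0.0964), Spp1 (0.119) and Trem2 (0.107) did not.

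Genes of the lysosome rose. Of 60 listed genes 53 were tested, 4 of the others having no read, and 40 were called higher, 31 of them without overlap, against 4 called lower (median log2 difference 0.68; 43 and 4 without mouse 4). Their summed level was 14400 to 24700 CPM at 8 weeks and 26190 to 42020 CPM at 20 weeks. Psap, which encodes the precursor of the saposins that activate lipid breakdown, ranged from 1875 to 3899 CPM (median 2437) and then from 4790 to 7953 CPM (median 6739), a log2 difference of 1.33 ± 0.19 (adjusted p = 0.00013). Ctsd, an aspartic protease, had medians of 2656 and 5438 CPM (0.93 ± 0.18, adjusted p = 0.0011). Ctsk, a cysteine protease that cuts collagen, ranged from 17.3 to 84.8 CPM and then from 153 to 490 CPM (3.27 ± 0.38). Atp6v0d2, a proton pump subunit of macrophages and osteoclasts, rose from a median of 38.6 CPM to 330 CPM (2.90 ± 0.43). Lipa, the acid lipase that frees cholesterol and fatty acids, ranged from 105 to 402 CPM and then from 552 to 1090 CPM (2.09 ± 0.29). Several of these genes are also macrophage markers, as Ctsk and Atp6v0d2 are in the list of lipid-associated macrophages. Smpd1, the acid sphingomyelinase, went the other way, at 127 to 147 CPM and then 91.9 to 109 CPM (-0.46 ± 0.06, adjusted p = 8.3e-05). The acid glucosidase Gaa, which degrades glycogen, was lower as well (-0.30 ± 0.08, adjusted p = 0.0066). Smpd1 did not overlap between the ages.

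Many lysosomal promoters hold the motif TCACGTGA, the core of the element bound by the transcription factor Tfeb and its relatives, and it was searched for on both strands in the window from 250 bases before to 50 bases after each gene's start (RefSeq, GRCm38.p6). It was found in 5 of the 29 lysosomal genes called higher that had a promoter in the table (17.2%), in 0 of the 4 called lower and in 2 of the 8 not called (25%). For comparison, 304 of 27025 promoters of all genes (1.12%) and 202 of the 8386 tested genes with a promoter (2.41%) held it. The 5 genes are shown because they carry the motif in a list that rose, each with up to 30 bases on either side upstream of the start, written 5′ to 3′ on the gene's strand with the motif in capitals.
Atp6v1a (proton pump subunit, chr16:44139354-44139421, minus strand): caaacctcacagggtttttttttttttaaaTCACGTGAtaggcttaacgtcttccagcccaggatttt
Ctsa (carboxypeptidase, chr2:164833730-164833772, plus strand): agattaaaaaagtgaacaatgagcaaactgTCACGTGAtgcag
Ctsd (aspartic protease, chr7:142387889-142387956, minus strand): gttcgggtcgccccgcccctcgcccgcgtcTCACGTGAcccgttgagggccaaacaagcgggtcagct
Gla (alpha-galactosidase, chrX:134601196-134601255, minus strand): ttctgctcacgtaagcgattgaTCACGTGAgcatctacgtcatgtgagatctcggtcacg
Mcoln1 (lysosomal calcium channel, chr8:3500443-3500510, plus strand): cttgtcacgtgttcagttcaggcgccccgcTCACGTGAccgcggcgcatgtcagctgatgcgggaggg
The motif began 132, 13, 99, 228 and 46 bases before the start of Atp6v1a, Ctsa, Ctsd, Gla and Mcoln1. A match is a description of these letters, and the share was no higher in the genes called higher than in those not called.

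Genes of cholesterol handling moved in both directions. Of 14 tested genes of cholesterol efflux and storage 7 were higher (50%, against 27.9% of all genes tested) and 2 lower (median log2 difference 0.41). Soat1, which esterifies cholesterol for storage, ranged from 12.8 to 55.8 CPM and then from 73.7 to 147 CPM (1.96 ± 0.30, adjusted p = 0.0002). Apoc1, a small apolipoprotein, fell from a median of 102 CPM to 57 CPM (-0.74 ± 0.15, adjusted p = 0.0012). Of 23 tested genes of cholesterol synthesis and LDL uptake 3 were higher and 6 lower (median -0.30), a share of 26.1% lower that is close to the 21.4% of all genes. Srebf2, the transcription factor that drives this pathway, ranged from 35 to 47.5 CPM and then from 65.9 to 88.2 CPM (0.90 ± 0.09, adjusted p = 1.4e-05). Hmgcs1, an early enzyme of the pathway, ranged from 319 to 430 CPM and then from 171 to 272 CPM (-0.75 ± 0.12, adjusted p = 0.00035). Factor and enzyme thus moved in opposite directions, both without overlap. Hmgcs1 was the gene among the 6 lower ones whose promoter held TCACNCCAC, a sterol regulatory element searched for on both strands (16.7%, against 1.44% of all promoters).

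The study asked about matrix remodelling, and the matrix genes are given by class. Of 44 collagen chains 22 did not pass the limit. Among the 22 tested 7 were higher and 2 lower (median log2 difference 0.20), against 27.9% and 21.4% of all genes tested. With an expression limit of 4, which leaves the more abundant chains, the median was -0.35, and the summed level of the list had a mean of 9622 CPM at 8 weeks and 7768 CPM at 20 weeks. Col6a5 ranged from 4.77 to 26.8 CPM (median 15.9) at 8 weeks and from 60.4 to 83 CPM (median 71.9) at 20 weeks (2.26 ± 0.31, adjusted p = 0.0001). Col15a1, a chain of basement membrane zones, was lower, from a median of 1039 CPM to 623 CPM (-0.69 ± 0.22, adjusted p = 0.018). The major fibrillar chain Col1a1 ranged from 35.9 to 350 CPM and then from 86.3 to 301 CPM (0.62 ± 0.49, adjusted p = 0.31). The microfibrillar chain Col6a3 ranged from 63.8 to 262 CPM and then from 128 to 342 CPM (0.45 ± 0.33, adjusted p = 0.28). Neither was called, and their ranges overlapped widely. Another fibrillar chain, Col1a2, was among the 7 called higher. Col4a1, of the adipocyte basement membrane, was not called (-0.33 ± 0.18, adjusted p = 0.15), although its adjusted p was 0.0349 without 8 week mouse 2 and 0.0225 with array weights.

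Of 37 tested matrix glycoproteins 13 were higher and 6 lower (median 0.37), against 27.9% and 21.4% of all genes tested. Without mouse 4 the counts were 16 and 4. Mgp, which binds calcium in the matrix, ranged from 0.455 to 13 CPM and then from 15.6 to 53.9 CPM (2.93 ± 0.50, adjusted p = 0.00042). Fn1, the gene of fibronectin, had medians of 395 and 412 CPM (0.19 ± 0.29, adjusted p = 0.62). Eln, the gene of elastin, had medians of 6.79 and 6.09 CPM (0.17 ± 0.35). Tnc, the gene of tenascin C, had medians of 47.9 and 51.7 CPM (-0.08 ± 0.59). Sparc, a collagen-binding glycoprotein, ranged from 3252 to 8246 CPM and then from 2638 to 5428 CPM (-0.50 ± 0.25, adjusted p = 0.11). None of these 4 genes was called by limma. The 13 higher genes included Lama2, Fbn1, Fbln1 and Postn, and the 6 lower ones Nid2, Nid1 and Matn2. Sparc was called lower by DESeq2 (adjusted p = 0.0324), by edgeR (0.0488), and by limma with array weights (0.0198) or without 8 week mouse 2 (0.0278). Adamtsl2, a secreted protein of the fibrillin microfibrils, was among the largest falls, from 6.14 to 17.8 CPM at 8 weeks to 1.69 to 3.81 CPM at 20 weeks (-1.90 ± 0.21, adjusted p = 2.7e-05).

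Enzymes that cut or modify the matrix rose more often than they fell, with 17 of 32 tested genes higher and 5 lower (median 0.45). Mmp2, a gelatinase, ranged from 1.74 to 18.2 CPM (median 9.28) and then from 32.1 to 80.2 CPM (median 56.3), a log2 difference of 2.62 ± 0.41 (adjusted p = 0.00022). Mmp13, a collagenase, went from 0.53 to 3.3 CPM to 13.6 to 47.3 CPM (3.45 ± 0.34, adjusted p = 1.4e-05). Mmp11, a metalloprotease of stromal cells, went from 0.802 to 3.94 CPM to 5.76 to 9.73 CPM (1.59 ± 0.21). All 3 genes were without overlap. Timp1, an inhibitor of these enzymes, was higher with overlap, at medians of 9.83 and 26.6 CPM (1.43 ± 0.36, adjusted p = 0.0054). Mmp9, another gelatinase, did not pass the expression limit, at 1.68 to 5.38 CPM and 1.83 to 3.13 CPM. Serpinh1, the chaperone of newly made collagen, fell from a median of 801 CPM to 383 CPM (-0.97 ± 0.28, adjusted p = 0.012).

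The TGF-beta pathway, which drives matrix production in many tissues, moved little as a list. In it 9 of 32 tested genes were higher and 5 lower (median log2 difference 0.08), against 27.9% and 21.4% of all genes tested. The ligand Tgfb1 ranged from 32.7 to 58.8 CPM (median 43.4) at 8 weeks and from 73.5 to 138 CPM (median 110) at 20 weeks (1.25 ± 0.18, adjusted p = 0.00014). In contrast, Tgfb3 ranged from 23.6 to 37.2 CPM and then from 18.1 to 26 CPM (-0.54 ± 0.11, adjusted p = 0.0015). Tgfb2 and Inhba, the gene of an activin subunit, did not pass the limit: Tgfb2 had medians of 0.545 and 3.2 CPM and Inhba medians of 0.614 and 2.04 CPM. With no expression limit limma called both higher (Tgfb2 1.21, adjusted p = 0.00202, and Inhba 0.8, adjusted p = 0.017). Among these ligands Tgfb3 alone was lower. The receptors Tgfbr1 (55.5 to 98.4 CPM and then 109 to 234 CPM, 1.32 ± 0.19, adjusted p = 0.00012) and Tgfbr2 (61.6 to 84.9 CPM and then 118 to 148 CPM, 0.86 ± 0.08, adjusted p = 1e-05) both rose without overlap. Smad3, which carries the signal to the nucleus, was not called, with medians of 35.6 and 34.2 CPM (-0.01 ± 0.11). The inhibitor Smad7 ranged from 85.1 to 186 CPM and then from 51.4 to 67.9 CPM (-0.98 ± 0.18, adjusted p = 0.00063). Gdf3, a ligand of adipose tissue macrophages, rose from a median of 2.58 CPM to 14.9 CPM (2.19 ± 0.29). Its receptor on adipocytes, Acvr1c, fell from a median of 188 CPM to 99 CPM (-0.96 ± 0.17).

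Integrins, which bind cells to the matrix or to other cells, and the actin cytoskeleton rose. Of 16 tested integrin chains 10 were higher and 3 lower (median 1.29), and 10 of the 26 listed did not pass the limit. The higher chains were Itgax, Itga5, Itgb2, Itga4, Itgad, Itgav, Itgam, Itgb7, Itga9 and Itga3. Itgae, Itga6 and Itga7 were lower. Several of the higher chains are those of leukocytes, and Itgax and Itgam are also in the macrophage lists. The list is thus no measure of adhesion to the matrix alone. Itga5, the fibronectin receptor chain, ranged from 27 to 106 CPM (median 64.6) and then from 306 to 425 CPM (median 390), a log2 difference of 2.68 ± 0.26 (adjusted p = 1.3e-05). Itgae, a chain of intraepithelial lymphocytes and dendritic cells, fell from a median of 4.85 CPM to 1.55 CPM (-1.05 ± 0.19). Of 62 tested genes of the actin cytoskeleton and focal adhesion 42 were higher and 6 lower (median 0.68; 38 and 11 with TMM factors), with 21 of the higher genes without overlap. Capg, which caps actin filaments, had the largest rise, from 25.9 to 174 CPM to 207 to 513 CPM (2.40 ± 0.38). Lcp1, the actin bundling protein of leukocytes, ranged from 71.4 to 333 CPM and then from 480 to 1139 CPM (2.33 ± 0.34). Both are genes that leukocytes express, and the core macrophage sum rose in the same mice. Srf, the transcription factor of many actin genes, was not called, with medians of 63.7 and 67.8 CPM (-0.01 ± 0.14). Its CArG box was found in 3 of 36 promoters of the actin genes called higher (8.33%), in 3 of 12 of those not called (25%) and in 1.81% of all promoters.

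Of 11 tested tubulin genes 5 were higher and 3 lower. Tuba1c ranged from 29.7 to 50.9 CPM and then from 87.2 to 131 CPM (1.35 ± 0.13, adjusted p = 1.2e-05). Tuba1a ranged from 375 to 2415 CPM and then from 211 to 714 CPM (-1.15 ± 0.43, adjusted p = 0.042). The 2 genes are near-identical in their coding sequence, which leaves the split of their reads uncertain. The call of Tuba1a was lost without 20 week mouse 1, 2, 4, 5 or 6 or 8 week mouse 1, 3, 4 or 6 (adjusted p from 0.0523 to 0.0893).

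Progenitor and fibroblast markers rose, with 9 of 13 tested higher, 1 lower and a median of 1.21. Pdgfra, the receptor that defines adipose progenitors, ranged from 1.36 to 12.1 CPM (median 7.48) and then from 19.1 to 31.5 CPM (median 28.3), a log2 difference of 1.97 ± 0.35 (adjusted p = 0.00054). Lum, a proteoglycan of fibroblasts, rose from a median of 15.3 CPM to 71.1 CPM (2.23 ± 0.45). The mean log2(CPM + 1) of the list was 4.49 in 20 week mouse 4, 5.28 to 5.4 in the other 20 week mice and 3.15 to 4.67 at 8 weeks. Without mouse 4 the median log2 difference was 1.38 with the same counts of 9 and 1. Of 14 endothelial markers 1 was called, and 2 without mouse 4 (median 0.28, summed level 135 to 622 CPM at 8 weeks and 276 to 703 CPM at 20 weeks). Of 10 mural cell markers 0 were called by limma (median -0.02), with 1 lower at an unadjusted p under 0.05 and 1 lower each by edgeR and DESeq2. Acta2, the smooth muscle actin of mural cells and myofibroblasts, ranged from 101 to 366 CPM and then from 25.7 to 158 CPM (-1.05 ± 0.42, adjusted p = 0.052). Its adjusted p was 0.0254 without 8 week mouse 2, 0.0419 without 20 week mouse 6 and 0.0341 with TMM factors.

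Genes of lipid storage fell. Of 15 tested genes of de novo lipogenesis 8 were lower and 0 higher (median log2 difference -0.61), and of 9 genes of triglyceride synthesis 4 were lower and 0 higher (median -0.60). Scd1, the desaturase that makes oleate and one of the most abundant transcripts in these cells (chromosome 19, 44394450 to 44407709), ranged from 34165 to 59654 CPM (median 50462) at 8 weeks and from 19423 to 27326 CPM (median 22449) at 20 weeks (-1.13 ± 0.21, adjusted p = 0.00065, and 0.486 with no expression limit). Fasn, the fatty acid synthase, ranged from 1802 to 4268 CPM and then from 676 to 2071 CPM (-1.0 ± 0.31, adjusted p = 0.016, and 0.105 with all 6 groups of the series in the fit). Acss2, which makes acetyl-CoA from acetate, fell from a median of 224 CPM to 85.9 CPM (-1.22 ± 0.26, adjusted p = 0.0021). Scd1 did not overlap between the ages, whereas Fasn and Acss2 did. Dgat2, which makes triglyceride from diglyceride, ranged from 1773 to 3669 CPM and then from 716 to 1691 CPM (-1.05 ± 0.23). Gpam, the first enzyme of glycerolipid synthesis, ranged from 153 to 256 CPM and then from 76.9 to 114 CPM (-1.04 ± 0.14). Both were without overlap. For Fasn, Dgat2 and Lpl the lowest 20 week value was that of mouse 4, far from the other 5 mice.

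Lipolysis genes were lower too, with 10 of 15 tested lower and 2 higher (median -0.41). Lipe, the hormone-sensitive lipase, had medians of 2137 and 1482 CPM (-0.51 ± 0.14, adjusted p = 0.011). Mgll, the monoglyceride lipase, had medians of 1774 and 1418 CPM (-0.36 ± 0.11, adjusted p = 0.013). Pnpla2, the adipose triglyceride lipase that makes the first cut, was not called, at 1776 to 4023 CPM and then 1589 to 3164 CPM (-0.25 ± 0.21, adjusted p = 0.35). G0s2, an inhibitor of Pnpla2, fell from a median of 67.2 CPM to 18.2 CPM (-1.58 ± 0.37, adjusted p = 0.0036). The inhibitor thus fell while its target enzyme was not called. Of 15 genes of fatty acid uptake 1 was higher and 3 lower (median -0.05; 2 and 3 without mouse 4). Cav1, the coat protein of caveolae, ranged from 3007 to 3984 CPM and then from 2057 to 2438 CPM (-0.73 ± 0.09, adjusted p = 6.3e-05). Lpl, the lipoprotein lipase, had medians of 15515 and 10712 CPM (-0.49 ± 0.18, adjusted p = 0.036). The call of Lpl was lost without 20 week mouse 1, 2, 4 or 5 or 8 week mouse 1, 3, 4 or 6 (adjusted p from 0.052 to 0.0793).

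Of 19 tested genes of insulin signalling and glucose uptake 7 were lower and 3 higher (median -0.28; 10 lower without mouse 4). Slc2a4, the insulin-responsive glucose transporter, ranged from 170 to 218 CPM (median 181) and then from 108 to 153 CPM (median 133), a log2 difference of -0.54 ± 0.09 (adjusted p = 0.00052). Slc2a12, another glucose transporter of insulin-sensitive tissues, was among the largest falls, from 9.88 to 14.7 CPM to 3.14 to 5.73 CPM (-1.41 ± 0.13, adjusted p = 8.4e-06). Both transporters were without overlap. Akt1, one of the kinases downstream of the insulin receptor, rose from a median of 72.9 CPM to 126 CPM (0.70 ± 0.10, adjusted p = 0.00013). Its relative Akt2 went the other way and was among the 7 called lower.

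Mitochondrial genes fell by small amounts. Of 77 genes of the respiratory chain and ATP synthase 32 were lower and 1 higher, with a median log2 difference of -0.15 against 0.02 for all genes, and with TMM factors 50 were lower and 0 higher (median -0.23). Without mouse 4 there were 35 lower and 0 higher. Ndufab1, of complex I, ranged from 107 to 136 CPM and then from 81.6 to 101 CPM (-0.41 ± 0.07, adjusted p = 0.00055). Uqcrq, of complex III, ranged from 110 to 161 CPM and then from 99.3 to 118 CPM (-0.34 ± 0.09, adjusted p = 0.0074). In CD the list went the other way, with a median of 0.24 and 11 genes called higher, against 0 lower in limma, also at an unadjusted p under 0.05. The interaction term was below 0 and called for 61 of the 77 genes, in a comparison in which 26.3% of all genes were called. With all 6 groups of the series in 1 fit the term was below 0 for all 77 and called for 1, and Ndufab1 (adjusted p = 0.0681) and Uqcrq (0.0773) lost the call. Of 75 mitochondrial ribosomal proteins 29 were lower and 1 higher (median -0.17; 46 and 0 with TMM factors, 30 and 0 without mouse 4), as in Mrpl50 at 45.5 to 54.8 CPM and then 33.2 to 38.6 CPM (-0.52 ± 0.06, adjusted p = 4e-05), without overlap. Of 77 cytosolic ribosomal proteins 15 were higher and 0 lower (median 0.14), a share of 19.5% higher against 27.9% of all genes, among them Rpl23 at 220 to 281 CPM and then 293 to 388 CPM (0.37 ± 0.09). These counts depended on the scaling and on mouse 4 of the 20 week HFD group: with TMM factors 7 were higher and 5 lower, and without that mouse 25 were higher and 0 lower. No cytosolic ribosomal gene was lower at an unadjusted p under 0.05 in limma, and edgeR called 1 lower and DESeq2 0.

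Of 22 genes of branched-chain amino acid breakdown, by which adipocytes feed carbon into lipogenesis, 10 were lower and 1 higher (median -0.33; 15 lower without mouse 4). Hibch, an enzyme of valine breakdown, had medians of 170 and 110 CPM (-0.57 ± 0.14, adjusted p = 0.0046). Of 28 genes of pyruvate dehydrogenase and the TCA cycle 8 were lower and 1 higher (median -0.14), against 21.4% lower and 27.9% higher of all genes tested. Pcx, which makes oxaloacetate from pyruvate, ranged from 1357 to 2078 CPM and then from 969 to 1274 CPM (-0.53 ± 0.12, adjusted p = 0.0032). Idh3a, of the TCA cycle, had medians of 340 and 260 CPM (-0.35 ± 0.10). Among 18 genes of mitochondrial fatty acid oxidation 5 were lower and 2 higher (median -0.03), beside the same shares of all genes. Cpt1a, which admits fatty acids into the mitochondrion, was one of the higher ones at 99.1 to 145 CPM and then 138 to 216 CPM (0.61 ± 0.12, adjusted p = 0.0012). Of 9 tested thermogenic genes 2 were higher (and 1 lower without mouse 4), one of them Cidea at 1.44 to 4.28 CPM and then 5.32 to 11.5 CPM (1.39 ± 0.25), while Ucp1, the uncoupling protein, did not pass the limit.

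Proliferation genes rose almost throughout, with 24 of 26 tested higher and 0 lower (median 1.20), 9 of them without overlap. None was lower in limma at an unadjusted p under 0.05, whereas edgeR and DESeq2 each called 1 lower. Mki67, a marker of cycling cells, ranged from 8.29 to 45.7 CPM (median 22) at 8 weeks and from 116 to 191 CPM (median 161) at 20 weeks (2.94 ± 0.35, adjusted p = 4.2e-05). Ccnd1, which takes cells into the cycle, ranged from 4.34 to 16.6 CPM and then from 25.5 to 40.5 CPM (1.92 ± 0.28). In CD limma called 0 of the 26 (3 higher at an unadjusted p under 0.05, median 0.20), and the interaction term was called above 0 for 13, or for 2 with all 6 groups of the series in 1 fit. Of 19 genes of cell cycle arrest and p53 9 were higher and 4 lower (median 0.20). Gadd45b, a stress sensor, rose from a median of 86 CPM to 227 CPM (1.40 ± 0.14). Phlda3, a p53 target, fell from 315 to 166 CPM (-0.89 ± 0.10).

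Stress genes were mixed. Of 25 genes of the unfolded protein response 8 were higher and 4 lower (median 0.07), against 27.9% and 21.4% of all genes tested. Ddit3, the gene of the CHOP factor, had medians of 32.7 and 25.1 CPM (-0.33 ± 0.10, adjusted p = 0.017). Chac1, which degrades glutathione and lies downstream of it, had medians of 80.2 and 47 CPM (-0.94 ± 0.17, adjusted p = 0.00071). Both were lower at 20 weeks, whereas Ppp1r15a and Sdf2l1 of the same list were among the 8 called higher. Of 36 glutathione and antioxidant enzymes 13 were lower and 4 higher (median -0.16). Gstm1, a glutathione transferase, ranged from 431 to 791 CPM and then from 220 to 373 CPM (-1.09 ± 0.18, adjusted p = 0.00034). Txnrd1, the thioredoxin reductase, ranged from 147 to 234 CPM and then from 372 to 488 CPM (1.32 ± 0.11, adjusted p = 6.5e-06). The 2 enzymes moved apart, each without overlap. Of 21 genes of hypoxia and angiogenic signals 5 were higher and 5 lower (median 0.22). Angpt2, a destabiliser of vessels, ranged from 1.21 to 5.9 CPM and then from 6.1 to 15.6 CPM (1.46 ± 0.29). Vegfb, of the vascular growth factor family, ranged from 118 to 169 CPM and then from 74.8 to 99.1 CPM (-0.69 ± 0.11).

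The lists that can follow the handling of tissue or the hour of collection had medians from -0.14 to 0.18. Their counts stand beside 27.9% higher and 21.4% lower of all genes tested. The part of handling and collection in the differences between the ages was not tested. Of 24 immediate early genes 5 were higher and 1 lower (median 0.10). The phosphatase Dusp1 had medians of 282 and 665 CPM (1.23 ± 0.21) and the nuclear receptor Nr4a1 medians of 442 and 294 CPM (-0.75 ± 0.22). Of 18 heat shock chaperones 4 were lower and 0 higher (median -0.14), among them the mitochondrial chaperone Hspd1 (-0.43 ± 0.06). Of 17 circadian clock genes 2 were higher and 1, Clock, lower (-0.24 ± 0.06, adjusted p = 0.005), with a list median of 0.18. Of the small lists, 1 of 2 tested markers of mast cells and granulocytes was higher, 1 of 5 mesothelial markers was higher and 0 of 2 erythroid markers were called by limma, at an unadjusted p under 0.05 or by edgeR, with 1 lower by DESeq2. Of 36 genes named in the study text, a list the study chose on these same samples and which is therefore no independent evidence of direction, 30 were tested, 9 were higher and 7 lower (median -0.03).

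**Figure D4:**
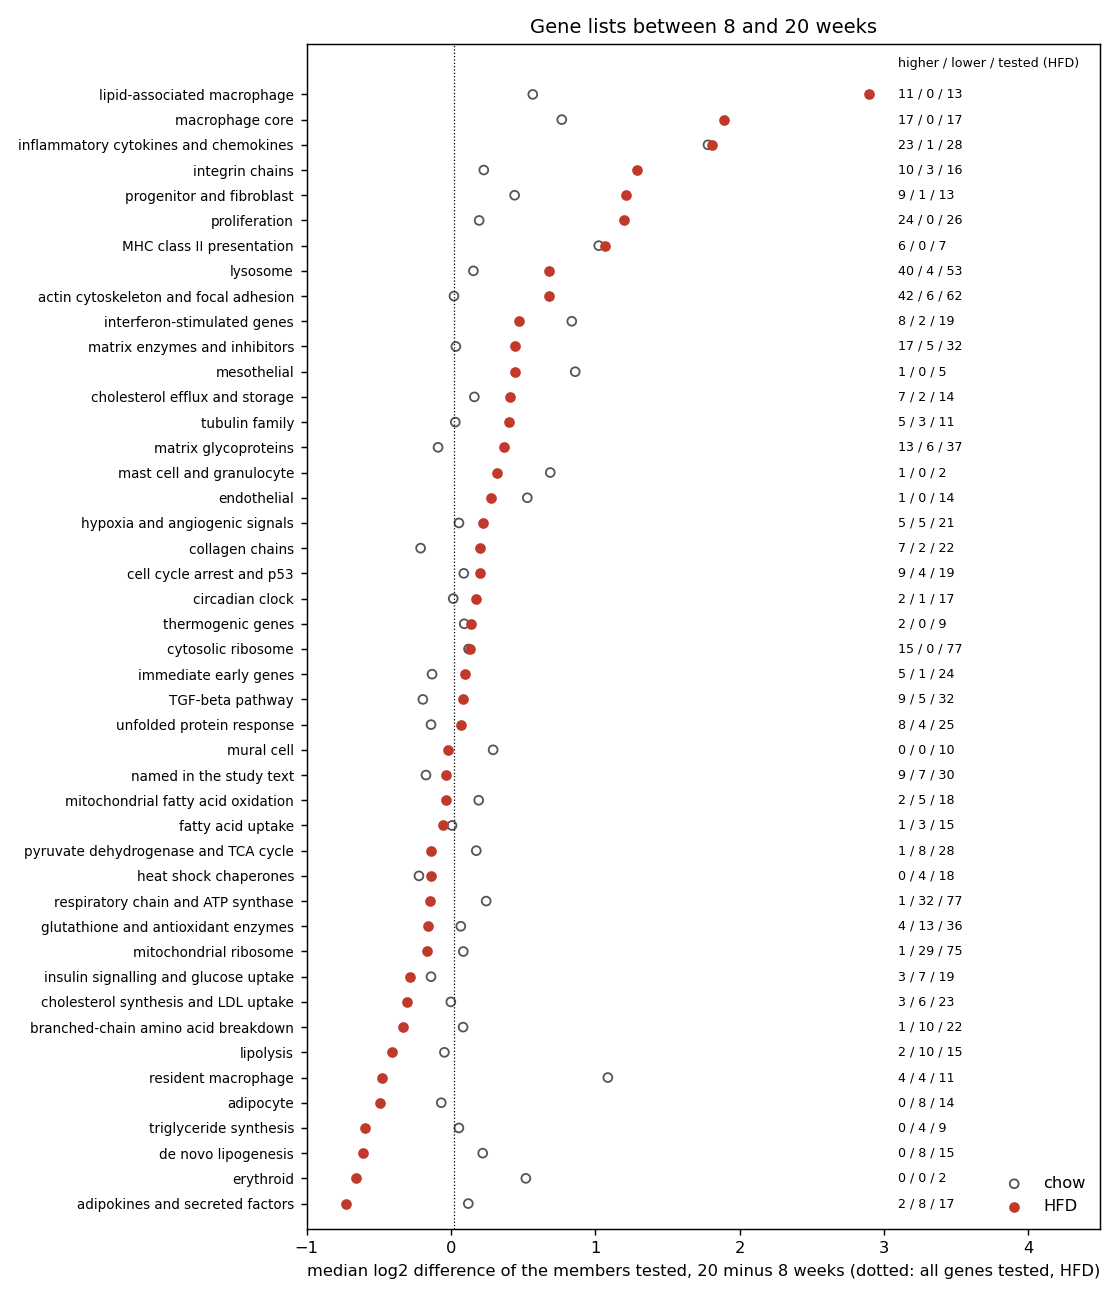
Median log2 difference between 20 and 8 weeks (horizontal axis) over the tested members of each gene list (rows), in HFD (red) and CD (open), with the dotted line at the median of all genes in HFD, 0.02, and the counts called higher and lower of those tested in HFD on the right. In HFD the lipid-associated macrophage list has the largest median, 2.90, and the adipokine list the lowest, -0.73.

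To set the HFD mice beside mice of the same ages without HFD, the CD mice of 20 weeks were compared with those of 8 weeks over the same 10477 genes. The CD ages also differed in depth, with 10562845 to 12611013 counted reads at 8 weeks and 13091365 to 14292115 at 20 weeks. The study's methods name alternative control diets without saying which mice had which. The part of these in the CD differences and in the interaction was not tested. In CD 537 genes were called (5.13%), 294 higher and 243 lower. This count depended on single mice: it was 272, 324 and 334 without 8 week CD mouse 3, 1 and 2, 305 and 315 without 20 week CD mouse 6 and 4, and 872 without 20 week CD mouse 1. Of the CD genes 190 were higher and 113 lower in both diets, so that 56.4% of the genes called in CD and 5.87% of those called in HFD shared a direction. Another 8 were higher in HFD and lower in CD and 18 the reverse. Across the 10477 genes, which are not independent of each other, the log2 differences of the diets had a Pearson correlation of 0.56 and a Spearman correlation of 0.38, as a description over comparisons that share no mice. Several of the genes with the largest HFD rises also rose in CD: Tnfsf9 by 2.42 ± 0.60, Il1a by 3.13 ± 0.71 and Cd40 by 1.94 ± 0.39 on the log2 scale.

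**Figure D5:**
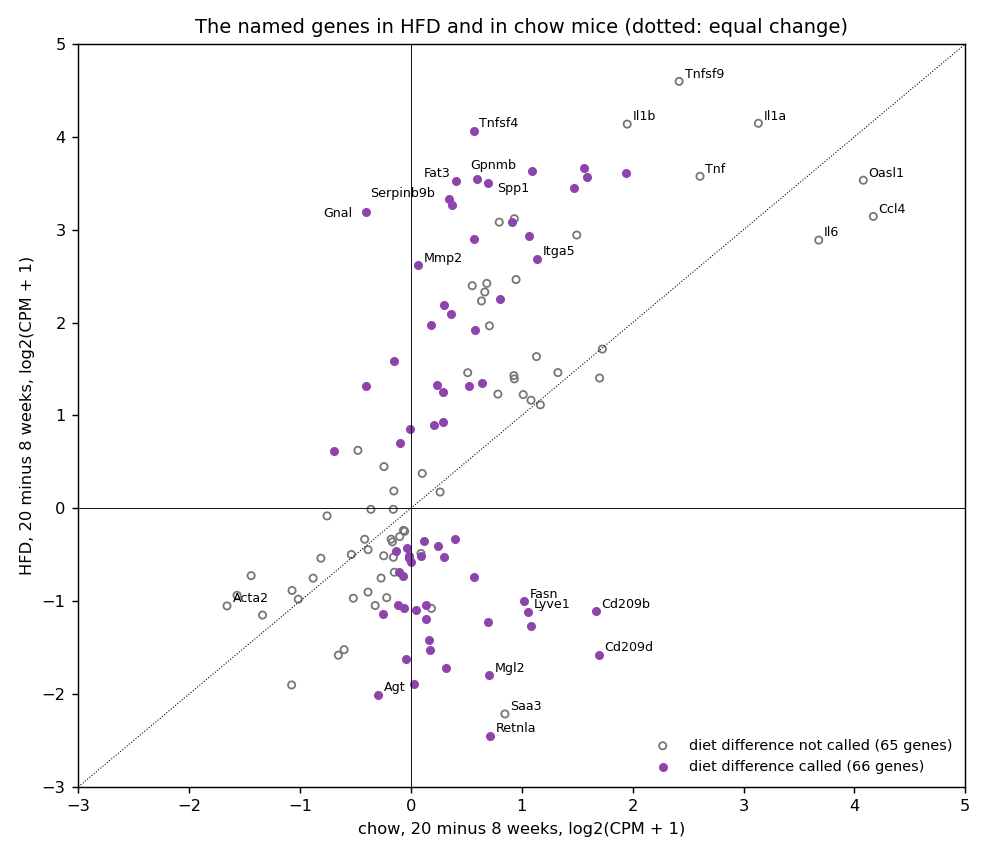
Log2 difference between 20 and 8 weeks in CD mice (horizontal axis) and HFD mice (vertical axis), both in log2(CPM + 1), for the 131 tested genes the text names, filled where the diet difference (the interaction term) was called, with some genes labelled and a dotted line at equal change. Gnal and Tnfsf4 lie high in HFD, at 3.19 and 4.07, and at -0.40 and 0.56 in CD, whereas Il6 and Oasl1 lie high in both.

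The interaction term, the HFD difference minus the CD difference, was called for 2755 genes (26.3%), 1679 above and 1076 below 0. This balance turned over with TMM factors, which gave 1204 above and 1705 below. With all 6 groups of the series in 1 fit 523 genes were called, 337 above and 186 below. Gnal, a G protein subunit of the olfactory and striatal type, had the largest term, 3.59 ± 0.68 (adjusted p = 0.001): it ranged from 5.21 to 12.4 CPM at 8 weeks of HFD and from 34.8 to 250 CPM at 20 weeks, and its CD difference was -0.40 ± 0.50. Tnfsf4 followed at 3.50 ± 0.40 (adjusted p = 1.7e-05), Fat3, a large cadherin, at 3.12 ± 0.44 with 0.334 to 3.49 CPM and then 16.1 to 31.1 CPM, and Serpinb9b, a protease inhibitor, at 2.98 ± 0.59. These 4 rose in HFD and were not called in CD, where their log2 differences were -0.40 to 0.56. The lowest terms were those of the macrophage lectins Cd209d, Cd209b and Mgl2 and of Retnla. Cd209d fell in HFD and rose by 1.70 ± 0.33 in CD (interaction -3.28 ± 0.47, adjusted p = 0.00011). Cd209b fell in HFD and rose by 1.67 ± 0.43 in CD (-2.78 ± 0.54). Retnla had an interaction of -3.16 ± 0.67 and Mgl2 one of -2.50 ± 0.47. These 8 terms stayed called with all 6 groups in the fit. In lipogenesis, Fasn had an interaction of -2.02 ± 0.50 (adjusted p = 0.006) and Acss2 one of -1.91 ± 0.36, their CD differences being 1.02 ± 0.37 and 0.69 ± 0.22 and not called. With all 6 groups the Fasn term lost its call (adjusted p = 0.0721) and that of Acss2 kept it (0.0497).

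The HFD mice of 34 weeks showed how the named genes stood later. Between 20 and 34 weeks of HFD 3046 genes were called (29.1%), in a comparison that shares the 20 week mice with the one above, so the values are only set side by side. The inflammatory genes that had risen most were lower again at 34 weeks, with log2 differences of -1.94 for Il1b (adjusted p = 0.038), -1.84 for Tnf (adjusted p = 0.012), -2.01 for Tnfsf9, -3.21 for Tnfsf4 and -2.38 for Il6. In all, 15 of the 28 cytokine and chemokine genes were called lower. The lipid-associated macrophage genes were not: Gpnmb had a difference of -0.10 (adjusted p = 0.86) and Spp1 one of 0.25 (adjusted p = 0.73), and limma called 0 of the 13 markers (3 higher at an unadjusted p under 0.05). Of the core macrophage markers 6 of 17 were called higher still. Itga5 (-1.84), Mmp2 (-1.15), Mmp13 (-2.01) and Pdgfra (-1.10) were lower at 34 than at 20 weeks, and 14 of 32 matrix enzymes and 14 of 37 matrix glycoproteins were called lower. Agt (-1.44) and Adrb3 (-1.63) fell further, G0s2 was higher again (2.85, adjusted p = 0.00017), and Scd1 (-0.58, adjusted p = 0.12), Adipoq (-0.10) and Retn (-0.54) were not called.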

How the data were processed

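Adipocyte RNA of 38 mice was sequenced as polyA RNA with a stranded TruSeq kit. The authors aligned the reads to mm10 (GRCm38) with STAR (2.5.2b, also given as 2.5 in the submitters' processing notes), counted reads that overlapped 1 gene unambiguously with featureCounts of Subread 1.5.1 on GENCODE vM2, and merged 3 technical replicates into 1 column per mouse. The strand setting of the counting is not given in the sources used here, so overlapping antisense genes cannot be told apart. The authors deposited CPM values, which sum to 1000000 in each mouse. The methods name TMM, but no TMM factor was visible in these sums. No column was left out (0 not used), and no other fraction of the tissue was analysed here.

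Differences were computed with limma 3.58.1 (R 4.3.3, mean-variance trend, two-sided) on log2(CPM + 1) in the 12 HFD mice. Fold changes on this scale understate the change of low genes. The CD fit, the interaction fit over 24 mice and the fit of 34 against 20 weeks used the same genes. Each CPM value was a whole multiple of the value of 1 read (100% within 0.1), and edgeR 4.0.16 and DESeq2 1.42.0 were run on the recovered reads as alternatives, with 5450 and 5642 genes called. The mouse numbers were not used to pair the mice in the main fits. The fit was tested on simulated data.

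Genes to name were the 10 highest and 10 lowest log2 differences without overlap, up to 2 called genes per direction in each list, the genes of the study text and the 4 highest and lowest interactions, apart from genes that are not reported here. Trem2, Csf1r, Psap, Ctsd, Fasn, Lyve1, Cfd, Il6, Ccl4, Uqcrq and Mrc1 were added after their values were seen. The comparison, lists and tests were chosen with earlier results of these data known. Of the listed symbols 16 were not analysed here. Promoter sequences came from RefSeq (GRCm38.p6), and gene positions from RefSeq matched 27250 genes. Alternatives were another pseudocount (0.25), expression limit (4 or none), TMM or median-of-ratios scaling, more groups in the fit, array weights, the mouse number as a block and leaving out each mouse.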

Additional observations from a re-analysis of the deposited data

Results flagged for a closer look

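In groups of 6 mice a sample was singled out where its gap to the nearest other mouse exceeded 0.625 of the group's range, which chance gives in about 1 in 20 groups. Of 268 gene and group combinations 19 were singled out, and of 96 list and group combinations 15. HFD 20 week mouse 4 accounted for 19 of these 34. It was the lowest 20 week mouse for Ctsk (0.634), Pdgfra (0.655), Acta2 (0.729), Col15a1 (0.660), Mgp (0.691), Serpinh1 (0.754), Tgfb2 (0.807), Tuba1a (0.745), Fasn (0.776), Dgat2 (0.762) and Lpl (0.729), where the number in brackets is the gap as a share of the range. It was also lowest for the list means of progenitor and fibroblast (0.868), collagen chains (0.786), matrix glycoproteins (0.811), matrix enzymes and inhibitors (0.776), integrin chains (0.728), actin cytoskeleton and focal adhesion (0.652) and named in the study text (0.840), and highest for the list mean of lipolysis (0.682). HFD 20 week mouse 5 was highest for Folr2 (0.671) and testis and epididymis (0.747). HFD 8 week mouse 2 was lowest for Cav1 (0.800), Mageb18 (0.632) and mural cell (0.638). HFD 8 week mouse 3 was lowest for Slc2a12 (0.750). HFD 8 week mouse 5 was highest for Smad3 (0.739), Txnrd1 (0.646), mesothelial (0.719), erythroid (0.796) and TGF-beta pathway (0.663) and lowest for triglyceride synthesis (0.652) and mitochondrial fatty acid oxidation (0.643). HFD 8 week mouse 6 was highest for Cd209d (0.642) and Cd209f (0.784).

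In 66 of the 131 tested genes that the text names, the change from 8 to 20 weeks differed between HFD and CD by the limma interaction term at an adjusted p under 0.05. The term was above 0, a larger log2 difference in HFD, for 33 genes, namely Gpnmb (2.94), Spp1 (2.81), Trem2 (2.17), Tnfsf4 (3.50), Cd40 (1.67), Prdm1 (1.98), Ankrd33b (2.11), Gpr85 (2.54), Ctsk (2.90), Atp6v0d2 (2.33), Psap (1.09), Ctsd (0.64), Lipa (1.73), Srebf2 (0.69), Pdgfra (1.79), Col6a5 (1.45), Mgp (1.86), Mmp2 (2.55), Mmp11 (1.74), Mmp13 (1.98), Tgfb1 (0.96), Tgfbr1 (1.73), Tgfbr2 (0.87), Gdf3 (1.89), Itga5 (1.55), Tuba1c (0.71), Akt1 (0.80), Cpt1a (1.31), Ccnd1 (1.34), Txnrd1 (0.80), Gnal (3.59), Fat3 (3.12) and Serpinb9b (2.98). It was below 0 for 33 genes, namely Adipoq (-0.60), Retn (-1.34), Adrb3 (-1.01), Agt (-1.71), Orm3 (-1.92), Alb (-2.03), Retnla (-3.16), Mgl2 (-2.50), Cd209d (-3.28), Cd209b (-2.78), Cd209f (-2.35), Lyve1 (-2.17), Smpd1 (-0.32), Apoc1 (-1.32), Itgae (-1.19), Fasn (-2.02), Scd1 (-0.88), Acss2 (-1.91), Gpam (-0.93), Cav1 (-0.66), Slc2a4 (-0.52), Slc2a12 (-1.58), Pcx (-0.82), Idh3a (-0.47), Hibch (-0.58), Ndufab1 (-0.65), Mrpl50 (-0.50), Uqcrq (-0.73), Hspd1 (-0.39), Gstm1 (-1.14), Vegfb (-0.59), Mageb18 (-1.58) and Smyd1 (-1.70). With TMM factors 65 of the 66 stayed called, with median-of-ratios factors 66, with the mouse number as a block 61 and with all 6 groups in 1 fit 26, and all 66 kept their sign in each of these fits.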

How the results depend on the processing

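The count of genes called between 8 and 20 weeks of HFD stayed within 1.5 times of 5166 under the alternatives of scaling, pseudocount, expression limit, groups in the fit, array weights, edgeR and DESeq2, from 3846 with a limit of 4 to 6157 with array weights, and a 2-fold threshold left 1051 (971 higher, 80 lower). Higher genes were 56.5% of the calls, 44.2% with TMM factors and 46.6% with edgeR. With single mice left out the count was 4647 to 5316 (higher 2683 to 2957, lower 1916 to 2359). In CD it was 272 to 872 (higher 170 to 397, lower 102 to 475), with 174 higher when all 6 groups were fitted together. The interaction count was 2293 to 3682 without single mice (higher 1323 to 2389, lower 908 to 1293), 523 with all 6 groups (337 higher, 186 lower), and 1204 higher and 1705 lower with TMM factors. The deviations of mice with the same number at 8 and 20 weeks correlated from -0.606 to 0.388. These few values cannot exclude a shared origin of mice with the same number, and the numbers were not used as pairs in the main fit. With the replicate block on the mouse number 4598 genes were called in HFD, 2462 for the interaction and 367 in CD, of which 145 were lower.

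List medians moved by more than the spread between mice as follows: with TMM factors, mitochondrial ribosome -0.244, TGF-beta pathway 0.00227 and unfolded protein response -0.0127; with edgeR, -0.231, 0.0189 and -0.00303 for the same lists; with array weights, triglyceride synthesis -0.473 and thermogenic genes -0.0503; with a limit of 4, collagen chains -0.351, integrin chains 1.85, TGF-beta pathway 0.000815 and hypoxia 0.0805; with no limit, mast cells and granulocytes 1.38, adipokines -0.544, integrin chains 0.583 and tubulins 0.159. Without single mice triglyceride synthesis ranged from -0.669 to -0.373 (the latter without 8 week mouse 2), and the TGF-beta pathway from 0.00904 (without 8 week mouse 4) to 0.0938. Of the 131 tested genes in the text 118 were called. Of these 100 kept the call under every alternative that was run, all 118 did under both scalings, and 0 changed sign. With all 6 groups 15 lost it (Cd209f, Pcx, Cpt1a, Tuba1a, Smad7, Ccr2, Ddit3, Nr4a1, Clock, Tgfb3, Mgll, Fasn, Lyve1, Uqcrq and Mrc1), with no limit 4 (Scd1, Lpl, Tuba1a and Adipoq), and with the CD mice in the fit 3 (Cd209f, Tuba1a and Ccr2). The genes that changed sign were not called: with array weights Eln (-0.131), Tnc (0.16) and Srf (0.137), and without single mice Fn1 (-0.000189 to 0.387), Eln (-0.0877 to 0.338), Tnc (-0.512 to 0.42), Smad3 (-0.0698 to 0.056) and Srf (-0.0666 to 0.12). The cause of these shifts was not tested. Genes near the expression limit rest on few reads, and tests on 6 mice a group leave small differences undetected.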

Other observations

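Several genes that the report does not describe, chosen after their values were seen, lay far apart between 8 and 20 weeks of HFD. Among those higher at 20 weeks, Il10, an anti-inflammatory cytokine and a member of the cytokine list, had means of 15 ± 9.88 and 189 ± 134 CPM (SD, n = 6 each, log2 difference 3.46, limma adjusted p = 0.00034). Cpe, a carboxypeptidase that processes prohormones, had means of 8.45 ± 4.08 and 95.3 ± 19.1 CPM (3.41, adjusted p = 2e-06), and C7, a component of the terminal complement complex, means of 5.73 ± 3.43 and 39.4 ± 8.98 CPM (2.71, adjusted p = 1.8e-05). E2f8, a cell cycle repressor tied to polyploid cells, had means of 1.07 ± 0.90 and 17 ± 5.38 CPM (3.18, adjusted p = 9e-06). None of these 4 overlapped between the ages. Their CD differences were 1.89, 0.79, -0.15 and 0.39, none of them called.

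Among those lower at 20 weeks, Esr1, the estrogen receptor, had means of 51 ± 5 and 22.9 ± 3.39 CPM (-1.13, adjusted p = 8e-06), and Ffar4, a receptor for long-chain fatty acids, means of 26.4 ± 8.68 and 10 ± 1.3 CPM (-1.26, adjusted p = 0.00013). Phgdh, the first enzyme of serine synthesis, had means of 502 ± 50.9 and 249 ± 17.8 CPM (-1.0, adjusted p = 4e-06) and did not move in the same way in CD (0.06, interaction adjusted p = 0.00011). Mest, an imprinted gene tied to adipocyte expansion, was lower in both diets (-1.31 in HFD and -2.18 in CD).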
